A study of Mus musculus with 140 samples.

Results

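The Tcl1 knockdown course was set against the empty vector course of the same days. Members were the samples whose titles name the Tcl1 shRNA, 8 RNA samples from days 0 to 7, hybridised to both array types, A and B, of the mouse 430 design. They make up 16 of the 140 arrays and 8 of the 70 RNA samples of the series, and the 8 empty vector samples of days 0 to 7 were their reference. The series followed CCE cells, embryonic stem cells of a male 129/Sv mouse, while regulators of self-renewal were depleted by short hairpin RNA (shRNA). Tcl1 shRNA cells carried a viral vector with a hairpin against Tcl1 and a GFP marker, and empty vector cells carried the same H1P vector without a hairpin. Both were kept in LIF (leukaemia inhibitory factor) at 1000 units/ml and sorted for GFP, with day 0 set 48 hours after transduction. The series also held 1 course of retinoic acid treatment without LIF, which entered the fit of all courses. The Tcl1 hairpin and the vector were each followed in 1 course with 1 sample per day and no replicate transduction. P-values, other than 1 from permuted signs for Tcl1, therefore rest on how far single days lay from a smooth time curve. That spread may be technical, and a property of either transduction cannot be told apart from the knockdown.

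Tcl1 encodes a small protein that binds the kinase Akt and raises its activity, and it was first known as an oncogene of T-cell leukaemia. In mouse embryonic stem cells it is expressed in the undifferentiated state. Akt acts downstream of PI3K, supports growth and survival, and keeps Foxo transcription factors out of the nucleus. Serum response factor (SRF), with cofactors that sense free actin, binds the CArG box in promoters of actin and smooth muscle contractile genes.

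Signals are deposited linear array intensities, and differences are given as log2 of Tcl1 shRNA over empty vector, on a log2(signal + pseudocount) scale that understates the change of dim genes. Of the annotated genes 14749 were bright enough to test. Median signal ran from 254.7 to 305.8 on A arrays and from 64.5 to 87.3 on B arrays in Tcl1 shRNA cells, and from 244.5 to 330.9 and from 80.9 to 105.6 in empty vector cells, so B arrays were dimmer in the Tcl1 course. Over genes, sample correlations between and within both courses lay between 0.9191 and 0.9674. The day 0 empty vector sample stood lowest in its mean correlation with the other days of its course, at 0.9436.

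The labelled cell type was checked on markers. The summed signal of 6 stem cell genes (Pou5f1, Nanog, Sox2, Zfp42, Utf1 and Tdgf1) ran from 30613 to 39618 in Tcl1 shRNA cells and from 40318 to 51736 in empty vector cells, so the sums did not overlap, although both expressed the genes brightly. Taken singly, Nanog alone did not overlap. Utf1 ran from 1543 to 2219 in Tcl1 shRNA cells and from 1427 to 2183 in empty vector cells. In the late difference 1 of the 6 passed, Pou5f1, which was lower. The sum of 8 fibroblast markers ran from 1093 to 1965 in Tcl1 shRNA cells and from 1110 to 2096 in empty vector cells, and 0 of the 7 that were tested passed in the late difference. Among these the periostin gene Postn stayed at 16 to 106 in Tcl1 shRNA cells and 10 to 42 in empty vector cells, under the table median of 283.3. Col1a2 lay above it, at 398 to 816 in Tcl1 shRNA cells and 352 to 471 in empty vector cells. Thy1 ran from 264 to 563 and from 293 to 789 in the same order. The sum of 5 macrophage and blood markers ran from 896 to 1645 in Tcl1 shRNA cells and from 1256 to 1716 in empty vector cells. The pan-leukocyte gene Ptprc was at 26 to 109 in Tcl1 shRNA cells and 10 to 72 in empty vector cells. Csf1r was brighter, at 440 to 714 and 490 to 751, and Cd68 ran from 198 to 522 and from 351 to 787. In bulk RNA, fewer cells of a type and less RNA per cell cannot be told apart.

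The targeted gene was examined first. Tcl1 signals on days 0 to 7 were 933, 707, 610, 596, 903, 654, 832 and 1125 in Tcl1 shRNA cells, against 2562, 1792, 2116, 2736, 3079, 2971, 3987 and 3824 in empty vector cells. Every Tcl1 shRNA sample lay below every empty vector sample. The matched log2 differences averaged -1.76 ± 0.33 (SD, n = 8 days), a 3.4-fold lower signal on 8 of 8 days, with p = 0.00781 (exact permutation of signs, two-sided), the smallest p that 8 days allow. The 8 days followed 1 transduction of each kind and are not independent, so this p holds no spread between transductions. The depletion was present on day 0, at -1.4, and deepest on day 6, at -2.18. In limma, Tcl1 was 2.62-fold lower on days 0 and 1 (adjusted p = 0.0023) and 4.04-fold lower on days 4 to 6 (log2 -2.01 ± 0.22 SE, adjusted p = 1.4e-08). The Tcl1 course itself did not move between these windows (log2 -0.05, adjusted p = 0.98). No other probe set names Tcl1 alone. Its relative Tcl1b3, on a probe set of its own, averaged 3870 ± 509 in Tcl1 shRNA cells and 4110 ± 2210 in empty vector cells on days 4 to 6 (SD, n = 3 days; adjusted p = 0.99).

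More genes were called apart from the empty vector in later windows, but the windows differed in precision. The median SE of the log2 difference was 0.274 on days 0 and 1 and 0.255 on days 2 and 3. It was 0.227 on days 4 to 6, so the counts do not measure growth alone. Without a model, genes at least 2-fold lower numbered 835 on day 0 and 565 on day 2, and those higher 354 and 598. Averaged over fitted curves, 156 genes (1.06% of those tested) passed an adjusted p of 0.05 on days 0 and 1, 69 higher (0.468%) and 87 lower (0.59%) in Tcl1 shRNA cells. On days 2 and 3, 759 genes (5.15%) passed, 563 higher (3.82%) and 196 lower (1.33%). On days 4 to 6, called late below, 1259 genes (8.54%) passed, 690 higher (4.68%) and 569 lower (3.86%). Of the genes called on days 2 and 3, 326 of 563 higher and 115 of 196 lower were called in the same direction late. These made up 57.9% and 58.7% of the middle calls and 47.2% and 20.2% of the late calls. All windows were read from the same fitted curve of each course, so calls in different windows are not independent. Over all 8 days 2675 genes (18.1%) passed, 1385 higher (9.39%) and 1290 lower (8.75%).

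These counts rested on single samples. Without the day 0 empty vector sample 1 gene was higher and 0 were lower on days 0 and 1, and without the day 0 or day 1 Tcl1 sample the counts were 1 and 22, and 37 and 50. On days 2 and 3, leaving out the day 2 or day 3 Tcl1 sample gave 291 higher and 89 lower genes, and 306 and 130, and leaving out the day 2 or day 3 empty vector sample gave 311 and 108, and 306 and 103. Late, 398 genes were higher and 231 lower without the day 5 Tcl1 sample, and 275 and 351 were lower without the day 4 or day 6 empty vector sample. The all-day count of lower genes was 736 without the day 0 empty vector sample. With day as a block, 10 genes were higher and 8 lower on days 0 and 1, and 886 were called late. Which direction held more genes also turned late, with 979 higher and 1017 lower on days 4 to 7, and over all days, with 1262 and 1321 when probe sets were averaged. The 373 late calls on B arrays divided into 150 higher and 223 lower, but into 223 higher and 122 lower after quantile normalization, whereas A arrays had 540 higher and 346 lower, and 484 and 402 after it. Quantile normalization moved the median late log2 difference on B arrays to 0.011, against -0.166 as deposited.

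Genes at least 2-fold apart were also counted on each day alone. From day 0 to day 7, 354 (2.4%), 534 (3.62%), 598 (4.05%), 858 (5.82%), 607 (4.12%), 483 (3.27%), 570 (3.86%) and 554 (3.76%) genes were higher in Tcl1 shRNA cells. In the same order 835 (5.66%), 567 (3.84%), 565 (3.83%), 552 (3.74%), 650 (4.41%), 907 (6.15%), 1273 (8.63%) and 1090 (7.39%) were lower. From one day to the next within the empty vector course, 336 to 795 genes were at least 2-fold higher and 360 to 1163 lower on the later day. With values as deposited, the counts of single days lay within these ranges, except the 858 higher on day 3 and the 1273 lower on day 6. The 1163 came from the step from day 0 to day 1 alone. The other steps had 360 to 480 lower genes, and the count of lower genes on every single day was above these. The counts depended on the scaling. After quantile normalization day 6 had 793 higher and 785 lower genes, day 5 had 705 and 553, day 7 had 759 and 731, and day 4 had 640 and 625, so the excess of lower genes on these days was turned. Day 3 then had 724 higher and 619 lower genes. With a pseudocount at the table median the days had 66 to 297 higher and 125 to 445 lower genes, and with a pseudocount of 1 they had 584 to 1262 and 817 to 1764.

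The late difference reached at least 2-fold in 169 genes that were higher, with a median of 2.46-fold and a highest of 11.9-fold. In 154 genes that were lower the median was 2.4-fold and the highest 4.04-fold, that of Tcl1 itself. Of the 169, 16, 31, 53, 114, 120, 145, 123 and 99 were at least 2-fold higher on days 0 to 7, so the largest step came between days 2 and 3. Of the 154, 35, 25, 36, 60, 107, 119, 103 and 72 were at least 2-fold lower on those days, with the main step between days 3 and 4. Days 4 to 6 chose these genes, so the values of those days are a description. A step between days 3 and 4 and a drop on day 7 lie at the edges of this choice and are favoured by it. Onset was taken as the first day with a 2-fold difference that lasted to the next day. It fell on day 3 for 52 of the genes that rose and on day 4 for 41 of those that fell. It fell on day 0 for 6 and 13 of them, and 21 and 26 had no such day. An onset on day 3 or 4 draws on day 4, which also chose the genes.

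**Figure D1:**
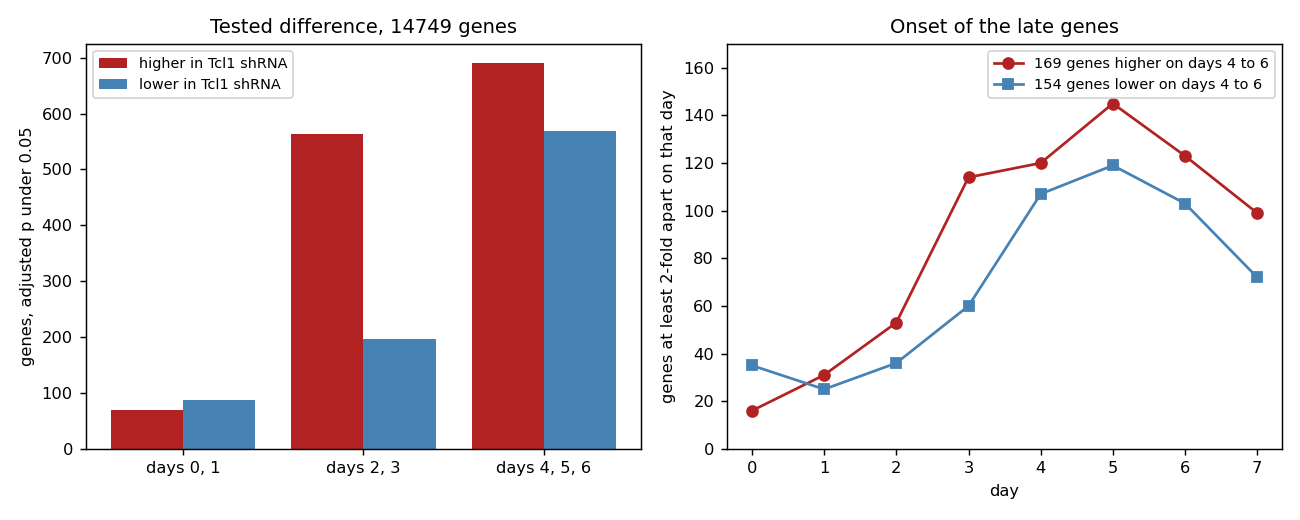
Left, genes that passed an adjusted p of 0.05 (y axis) in each window of days (x axis), higher in Tcl1 shRNA cells (red) or lower (blue). Right, number of the 169 rising and 154 falling late genes that were at least 2-fold apart from the empty vector on each day. The rising genes stepped up to 114 on day 3 and the falling genes to 107 on day 4, the first of the days that chose both sets.

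Movement within the Tcl1 course was tested as well. Within the Tcl1 course 311 genes (2.11%) differed between days 0 and 1 and days 4 to 6, 236 higher late (1.6%) and 75 lower (0.509%). In the empty vector course 108 genes (0.732%) differed between these windows. Of the 169 late rises 84 also rose within the Tcl1 course, and of the 154 late falls 7 also fell within it. Both comparisons contain the late days of the Tcl1 course, so this overlap is a description. The 311 became 74 without the day 0 Tcl1 sample, 176 without that of day 1 and 187 without that of day 5. In all 8 Tcl1 samples 197 genes (1.34%) lay above every empty vector sample and 108 (0.732%) below every one. Among the late genes of at least 2-fold, 30 risers and 33 fallers were separated in this way. These genes were chosen by their difference on days 4 to 6 of the same courses, so their share is a description.

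The largest rises were in genes of the actin cytoskeleton and of smooth muscle contraction. Of 24 genes in a contractile and SRF-type list, 17 rose late and 0 fell, with a median log2 difference of 1.225, against -0.074 over all genes. The shares over all genes, 4.68% higher and 3.86% lower late, stand beside the late counts of this and every later list. All lists were chosen with earlier results of these data known, so their counts are descriptions. On days 0 and 1, 2 of the 24 contractile genes had risen (Cnn2 and Myh9), and on days 2 and 3, 11. Acta1, the skeletal muscle alpha-actin gene, had signals of 113, 319, 835, 3942, 4406, 6933, 3587 and 2495 on days 0 to 7 in Tcl1 shRNA cells, against 72, 54, 73, 253, 266, 473, 372 and 169 in empty vector cells. Both courses were highest on day 5, and the Tcl1 course was the higher on each day, although its day 0 and day 1 samples lay within the range of the empty vector. On days 4 to 6 Acta1 averaged 4970 ± 1740 in Tcl1 shRNA cells and 370 ± 103 in empty vector cells (SD, n = 3 days), a log2 difference of 3.57 ± 0.38 (SE, adjusted p = 1.1e-08), the largest rise among genes that passed. Actin genes resemble each other in sequence, and cross-hybridisation between them was not tested. In the list of interstitial matrix and fibroblast markers 3 of 17 genes rose and 1 fell late, and their part in the contractile rises was not tested.

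Tagln encodes transgelin, an actin-binding protein of smooth muscle. Its signals were 492, 605, 1626, 5861, 6322, 10253, 6998 and 6052 in Tcl1 shRNA cells and 290, 262, 509, 734, 699, 760, 792 and 579 in empty vector cells on days 0 to 7. Every Tcl1 sample from day 2 on lay above every empty vector sample, and the late log2 difference was 3.35 ± 0.4 (adjusted p = 1.5e-07). Acta2, the smooth muscle alpha-actin gene, had 1636, 2311, 5265, 11936, 14031, 14370, 10523 and 7395 in Tcl1 shRNA cells and 795, 1040, 1417, 1590, 1879, 1863, 1505 and 1040 in empty vector cells. Its log2 gap was 0.99 and 1.11 on days 0 and 1 and widest on day 5, at 2.91, and the late log2 difference was 2.91 ± 0.28 (adjusted p = 2e-09). Both other Acta2 probe sets were dim, and their late mean log2 differences were 0.06 and -0.88.

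Other members were the calponin genes Cnn1 (log2 2.52 ± 0.32, adjusted p = 4.6e-07) and Cnn2 (1.88 ± 0.19, adjusted p = 8.3e-09), whose products bind actin. Cald1, encoding caldesmon, was 4.73-fold higher and the myosin light chain gene Myl9 3.97-fold higher late. The tropomyosin gene Tpm1 averaged 4970 ± 1550 in Tcl1 shRNA cells and 1150 ± 148 in empty vector cells late (log2 2.08 ± 0.35, adjusted p = 6.6e-05). Its other probe sets gave 2.54, 0.86 and, on a dim one, -0.05. The remaining risers, Actc1, Actg2, Tpm2, Tpm4, Vcl, Zyx, Csrp1, Myh9 and Fhl2, lay between 1.75-fold (Vcl) and 3.2-fold (Actc1). The alpha-actinin gene Actn1 (log2 0.11, adjusted p = 0.73), Srf itself (0.14, adjusted p = 0.64) and Tagln2 (-0.16, adjusted p = 0.53) did not pass.

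Promoters of the contractile genes were searched for the CArG box, since the list was drawn up around SRF. RefSeq promoters (GRCm38.p6), running from upstream of the transcript start into the first exon, were held for 22 of the 24 genes. An exact CArG box on either strand was found in 7 of the 22 (31.8%), namely Acta1, Actc1, Cnn2, Fhl2, Myl9, Srf and Vcl, and in 488 of 27025 genes in all (1.81%). The list names genes for which SRF control is known, so the share is a description of the list. Among the 12 largest late rises 8 had a promoter in the table and 2 held the box (Acta1 and Dusp5), and among the 12 largest falls 0 of 11 did. The promoters of Acta1, Dusp5 and Cnn2 are printed because they belong to the largest rise and to genes already called higher on days 0 and 1. Capitals mark the CArG box.
Acta1, chr8:123894726-123895025, minus strand, box starting at -73: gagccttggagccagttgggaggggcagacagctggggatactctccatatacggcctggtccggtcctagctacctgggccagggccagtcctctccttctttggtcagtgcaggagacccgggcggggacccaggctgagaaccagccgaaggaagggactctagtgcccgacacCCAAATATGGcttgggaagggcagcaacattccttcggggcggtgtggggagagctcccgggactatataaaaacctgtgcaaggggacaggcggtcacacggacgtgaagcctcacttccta
Dusp5, chr19:53528895-53529194, plus strand, boxes starting at -82: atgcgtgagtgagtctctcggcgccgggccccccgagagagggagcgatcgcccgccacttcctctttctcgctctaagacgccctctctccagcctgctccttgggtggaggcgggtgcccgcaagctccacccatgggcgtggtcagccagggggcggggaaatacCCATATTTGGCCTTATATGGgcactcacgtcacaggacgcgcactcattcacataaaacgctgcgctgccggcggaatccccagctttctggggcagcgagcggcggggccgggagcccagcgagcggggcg
Cnn2, chr10:79988350-79988649, plus strand, box starting at -56: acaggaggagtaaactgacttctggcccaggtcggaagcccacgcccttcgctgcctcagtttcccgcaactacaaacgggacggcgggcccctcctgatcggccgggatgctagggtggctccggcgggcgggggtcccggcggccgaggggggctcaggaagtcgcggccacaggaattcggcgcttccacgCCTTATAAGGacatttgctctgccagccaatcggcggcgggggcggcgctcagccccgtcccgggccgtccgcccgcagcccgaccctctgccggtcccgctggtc
In Dusp5, 2 boxes stand next to each other. A match describes these letters and does not show that SRF was bound.

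Dusp5 encodes a nuclear phosphatase of the MAP kinase ERK and was among the earliest rises. Its signals were 312, 400, 807, 606, 793, 963, 640 and 812 in Tcl1 shRNA cells and 68, 96, 240, 320, 111, 104, 92 and 435 in empty vector cells on days 0 to 7. It was 3.54-fold higher on days 0 and 1 (adjusted p = 0.0044) and 5.89-fold higher late (adjusted p = 1e-07), while on days 3 and 7 high empty vector signals narrowed the gap. Cnn2 was higher on 8 of 8 days, with an early log2 difference of 1.32 (adjusted p = 0.0013).

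Annexins bind membrane phospholipids in the presence of calcium. Of 13 annexin and S100 genes, 5 rose late and 0 fell, with a median of 0.167. Anxa1 signals were 277, 311, 362, 1510, 1759, 3410, 1318 and 944 in Tcl1 shRNA cells, against 258, 266, 279, 177, 177, 318, 252 and 297 in empty vector cells. The courses were alike on days 0 to 2 and 2.13 or more apart (log2) on each of days 3 to 6. The late log2 difference was 2.9 ± 0.37 (adjusted p = 6e-07), and the change from the early days exceeded that of the empty vector by 2.79 (adjusted p = 0.037). A second, very dim Anxa1 probe set gave -0.15.

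Anxa3 signals were 508, 669, 1063, 2695, 2342, 3533, 2248 and 1782 in Tcl1 shRNA cells and 350, 295, 300, 244, 327, 379, 362 and 316 in empty vector cells, without overlap. Its late log2 difference was 2.81 ± 0.26 (adjusted p = 1.4e-09). S100a6, a small calcium-binding protein gene, was at 4300 ± 504 in Tcl1 shRNA cells and 1380 ± 179 in empty vector cells late (adjusted p = 1.7e-07), and Anxa5 at 1040 ± 204 and 460 ± 272 (adjusted p = 0.00059; SD, n = 3 days). Anxa2, a bright relative, gave 5630 ± 1050 in Tcl1 shRNA cells and 5320 ± 1870 in empty vector cells and did not pass (adjusted p = 0.79).

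Cryab encodes the small heat shock protein alpha-B-crystallin. Its signals were 87, 92, 114, 365, 450, 796, 558 and 745 in Tcl1 shRNA cells and 15, 87, 15, 21, 26, 66, 17 and 52 in empty vector cells. The day 1 samples were nearly equal, and from day 1 on each Tcl1 sample was above every empty vector sample. The late log2 difference was 2.83 ± 0.35 (adjusted p = 2.4e-07), and was 2.49 on a second probe set and -0.03 on another. Of 17 small heat shock and chaperone genes 3 rose and 0 fell, with a median of 0.238. The others, Hspa8 and Hsph1, had log2 differences of 0.46 and 0.56, of which that of Hsph1 lost its call in 15 of 28 alternatives, and the bright small heat shock gene Hspb1 had 0.24 (adjusted p = 0.21).

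**Figure D2:**
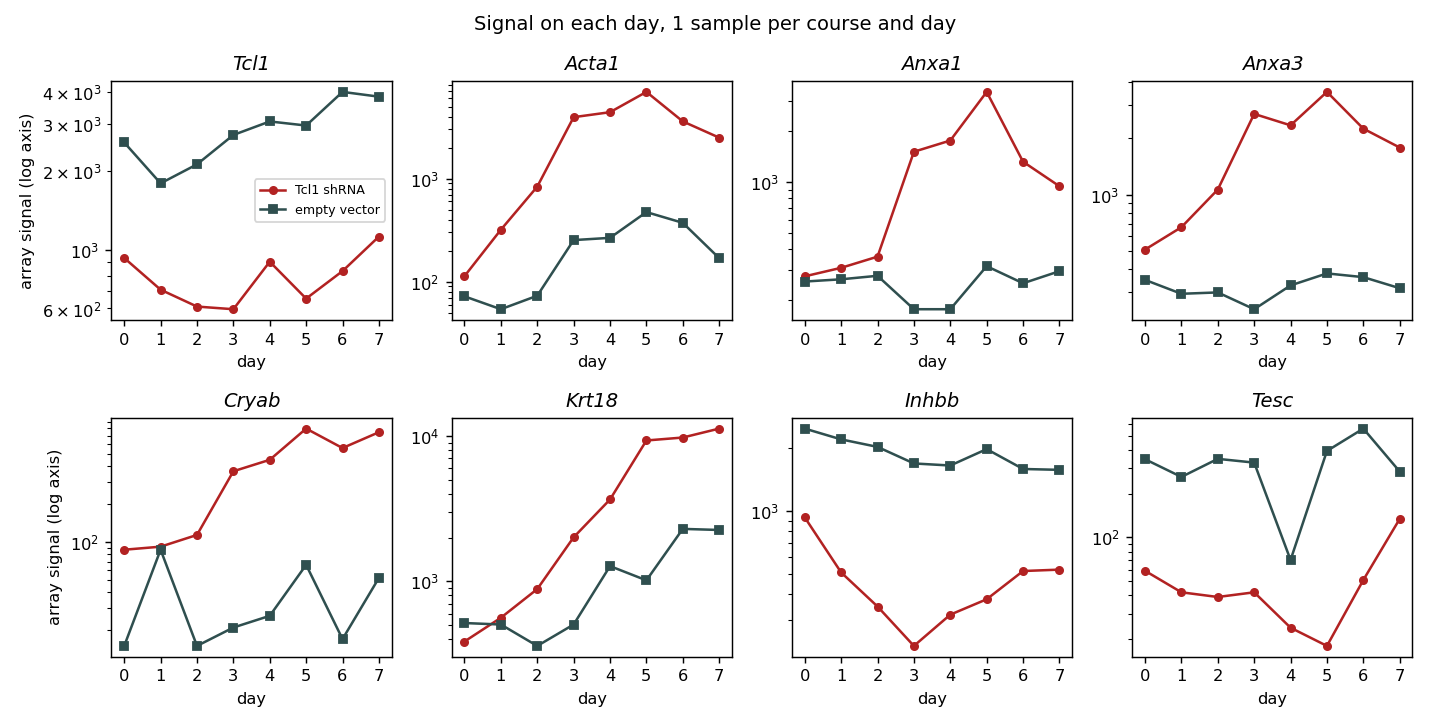
Array signal (log axis) of 8 genes on days 0 to 7 (x axis) in Tcl1 shRNA cells (red circles) and empty vector cells (dark squares), 1 sample per point. Tcl1 and Inhbb were lower on each day, and Acta1, Anxa1, Anxa3 and Cryab drew apart by day 3, when Acta1 stood at 3942 and 253.

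Keratins of simple epithelia rose as well. In an epithelial and keratin list of 17 genes, 7 rose late and 0 fell, with a median of 0.615, while 0 had risen on days 0 and 1 and 1 on days 2 and 3. Krt18 signals were 385, 561, 884, 2008, 3656, 9314, 9759 and 11243 in Tcl1 shRNA cells and 516, 504, 359, 504, 1272, 1015, 2294 and 2255 in empty vector cells. Both courses climbed, and the gap opened on day 2. Its late log2 difference was 2.32 ± 0.24 (adjusted p = 8.3e-09) and its change beyond the empty vector 2.38 (adjusted p = 0.0012). Its partner Krt8 was 1.66 higher late (adjusted p = 0.00017), Krt19 2.08 (adjusted p = 0.0021) and Krt7 2.06 (adjusted p = 0.00017). Sfn, which encodes the epithelial protein 14-3-3 sigma, was 1.81 higher (adjusted p = 0.00068). Cdh1, which encodes E-cadherin, averaged 3840 ± 863 in Tcl1 shRNA cells and 4080 ± 553 in empty vector cells (SD, n = 3 days; adjusted p = 0.63). Without the splines 2 of the 17 rose.

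The same 4 keratins stood in a trophectoderm list, in which 9 of 22 rose and 1 fell late, with a median of 0.447. The other risers were the trophectoderm transcription factor gene Cdx2 (log2 1.37 ± 0.41, adjusted p = 0.028), the homeobox genes Rhox6 and Esx1, Igf2, and the cell cycle inhibitor gene Cdkn1c (1.39 ± 0.23, adjusted p = 3.6e-05). Eomes gave 555 ± 37.9 in Tcl1 shRNA cells and 398 ± 69.7 in empty vector cells and did not pass (adjusted p = 0.11), and Gata3 was dim in both, at 22.2 ± 9.96 and 22.8 ± 10.4 (SD, n = 3 days). Without the splines 1 of the 22 rose.

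Among the 12 largest rises were also Car4, which encodes a membrane-bound carbonic anhydrase, 4.8-fold higher, and Chd7, which encodes a chromatin remodeller, 4.58-fold higher. Chd7 signals reached 334 and 344 on days 2 and 3 in Tcl1 shRNA cells, against 37 and 22 in empty vector cells, but a second probe set gave a late log2 difference of 0.24.

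**Figure D3:**
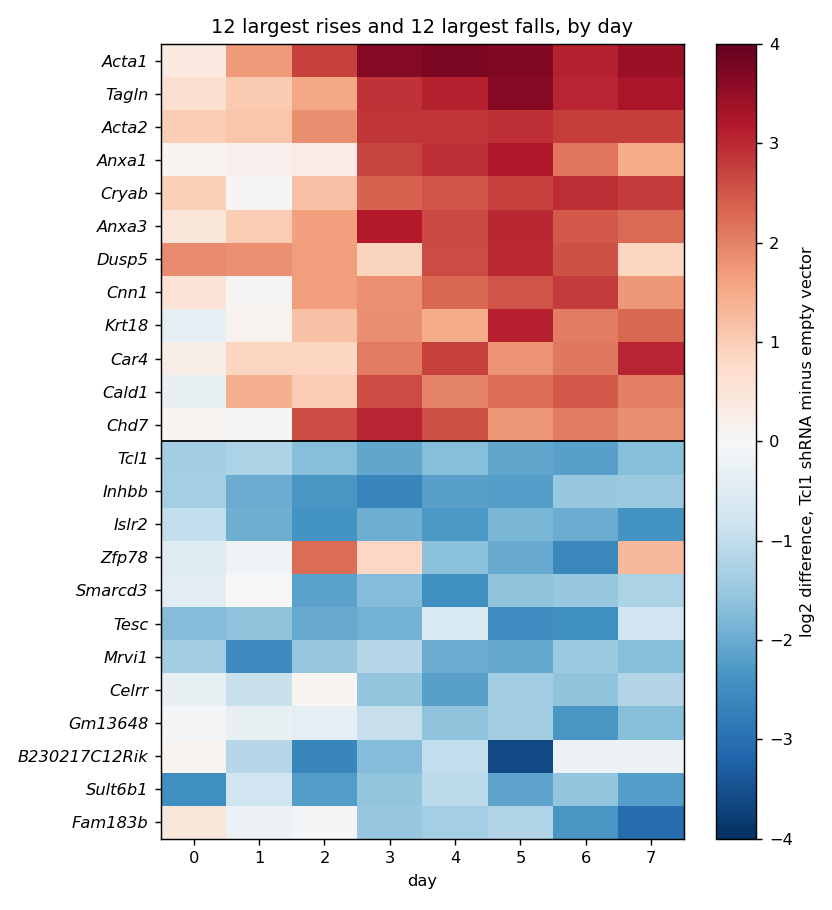
Log2 difference of Tcl1 shRNA minus empty vector (colour, red higher and blue lower) on each day (x axis) for the 12 largest late rises and, under the line, the 12 largest late falls. The rises deepened by day 3, with Acta1 at 3.66, and falls such as Inhbb (-1.35) and Tesc (-1.74) were present on day 0.

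The largest falls beside Tcl1 were in a mixed group of genes, and several were present from the start. Inhbb encodes the beta B subunit of activins and inhibins. Its signals were 932, 508, 349, 226, 319, 378, 516 and 524 in Tcl1 shRNA cells and 2480, 2202, 2027, 1689, 1651, 1978, 1589 and 1574 in empty vector cells, without overlap. It was 3.16-fold lower on days 0 and 1 (adjusted p = 8.8e-05) and 4.01-fold lower late (log2 -2 ± 0.21, adjusted p = 8.3e-09), and a second probe set gave -0.87.

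Tesc, which encodes the calcium-binding protein tescalcin, had 59, 42, 39, 42, 24, 18, 51 and 134 in Tcl1 shRNA cells and 344, 260, 346, 326, 70, 392, 558 and 283 in empty vector cells. The day 4 empty vector sample, at 70, lay far under the others of its course and below the day 7 Tcl1 sample. Tesc was 3.35-fold lower early (adjusted p = 0.018) and 3.57-fold lower late (adjusted p = 2e-04), and a second, dim probe set gave -0.32. Islr2, a gene for a leucine-rich repeat membrane protein, averaged 38.3 ± 5.57 in Tcl1 shRNA cells and 226 ± 19 in empty vector cells late (SD, n = 3 days; adjusted p = 8e-04). Smarcd3, a subunit gene of the BAF chromatin remodelling complex, averaged 89 ± 56.4 in Tcl1 shRNA cells and 466 ± 89 in empty vector cells (adjusted p = 0.00073).

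The other 7 of the 12, Zfp78, Mrvi1, Celrr, Gm13648, B230217C12Rik, Sult6b1 and Fam183b, had late means of 11.1 to 95.1 in Tcl1 shRNA cells and 96.8 to 313 in empty vector cells, with adjusted p between 0.0044 and 0.038. Zfp78 was higher in Tcl1 shRNA cells on days 2, 3 and 7. Zfp78, Mrvi1 and B230217C12Rik each had a second probe set with a smaller difference, between -0.01 and -0.36.

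In the pluripotency list 0 of 29 genes rose and 5 fell late, with a median of -0.17, against 4.68% higher, 3.86% lower and a median of -0.074 over all genes. Pou5f1, which encodes Oct4, had 13473, 16821, 13796, 10518, 9880, 10711, 12479 and 14404 in Tcl1 shRNA cells and 17380, 15118, 14741, 16028, 14626, 16248, 17590 and 15526 in empty vector cells. All Tcl1 samples other than that of day 1 lay below every empty vector sample. Its late log2 difference was -0.59 ± 0.17 (adjusted p = 0.019). Nanog signals were 6242, 4148, 2953, 4154, 4784, 5419, 5408 and 6019 in Tcl1 shRNA cells and 8314, 7080, 7221, 7181, 6635, 6752, 6576 and 6806 in empty vector cells, without overlap. The gap was widest on day 2 and narrowed after it. Nanog passed on days 2 and 3 (log2 -0.99, adjusted p = 0.00037) and not late (-0.33 ± 0.16, adjusted p = 0.22). Zfp42, the stem cell marker also called Rex1, likewise had -1.53 on days 2 and 3 (adjusted p = 4.7e-05) and -0.59 late (adjusted p = 0.076). The difference between these windows was not tested.

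Klf2, which encodes a Krüppel-like factor of ground-state self-renewal, was 2.14-fold lower late (adjusted p = 0.00063) and lower on 8 of 8 days. Khdc3 (log2 -0.93), Fgf4 (-0.81, lost in 11 of 28 alternatives) and the regulator Esrrb (-0.52 ± 0.12, adjusted p = 0.0048) also fell. Sox2 averaged 4120 ± 515 in Tcl1 shRNA cells and 4700 ± 681 in empty vector cells (adjusted p = 0.62), Tbx3 1120 ± 504 and 1220 ± 207 (adjusted p = 0.78), and Dppa4 4450 ± 482 and 4320 ± 280 (SD, n = 3 days; adjusted p = 0.77). These 3 regulators did not pass. Dppa5a and Tdgf1, among the brightest of the list, had differences of 0.02 and -0.04. Without the splines 1 of the 29 fell, and with a stiffer spline 9 did.

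In the LIF and Stat3 list 2 of 13 rose and 1 fell late, with a median of 0.026. Over all genes 4.68% were higher and 3.86% lower, and these small counts are not read as a result about the list. Jak1, the kinase that signals from the LIF receptor complex, was 0.99 higher (adjusted p = 0.0038), and Stat3 0.49 higher (adjusted p = 0.012), while the receptor gene Lifr fell, at log2 -1.18 (adjusted p = 0.01). Other probe sets of these genes gave 0.01 and 0.24 for Jak1, -0.56 to 0.4 for Stat3, and -0.09 and -0.08 for Lifr. The Stat3 target gene Socs3 averaged 8050 ± 1050 in Tcl1 shRNA cells and 8470 ± 2580 in empty vector cells (SD, n = 3 days; adjusted p = 0.98).

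In the primed epiblast list 4 of 14 rose late and 0 fell, with a median of 0.396. The de novo DNA methyltransferase gene Dnmt3b had 4121, 5112, 5132, 7870, 8566, 7578, 8834 and 8083 in Tcl1 shRNA cells and 3159, 3717, 4117, 4440, 4298, 4621, 3326 and 3204 in empty vector cells. From day 1 on, each Tcl1 sample was above every empty vector sample, and the late log2 difference was 1.02 ± 0.12 (adjusted p = 2.4e-07). The claudin gene Cldn6 was 1.42 higher (adjusted p = 7e-05), Sall2 1.05 (adjusted p = 0.0019) and Dnmt3a 0.68 (adjusted p = 0.043, lost in 14 of 28 alternatives). The epiblast gene Fgf5 was dim in both, at 20.3 ± 0.839 in Tcl1 shRNA cells and 9.93 ± 5.01 in empty vector cells, and Nodal averaged 2830 ± 131 and 2810 ± 82.2 (adjusted p = 0.99).

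Of 30 PI3K, Akt and Tcl1 family genes 1 rose and 2 fell late, Tcl1 itself among them, with a median of -0.108. This share is near the 8.54% called over all genes. The other fall was Foxo1 (log2 -0.54 ± 0.16, adjusted p = 0.026), whose other probe sets gave 0.02, -0.09 and -0.32. The mean of its probe sets was -0.2 (limma, adjusted p = 0.4), and the call was lost in 7 of 28 alternatives. Irs2, which encodes an adaptor of the insulin receptor, averaged 189 ± 136 in Tcl1 shRNA cells and 36 ± 11.6 in empty vector cells (adjusted p = 0.0069). Akt1 averaged 334 ± 166 in Tcl1 shRNA cells and 349 ± 77.8 in empty vector cells (SD, n = 3 days; adjusted p = 0.8).

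Foxo and Akt-responsive genes moved in both directions, with 3 of 18 higher and 6 lower late and a median of -0.044. The cell death gene Bcl2l11, which encodes Bim, had 1523, 1644, 2320, 2328, 2413, 2090, 2168 and 1783 in Tcl1 shRNA cells and 1133, 1028, 1014, 627, 966, 989, 912 and 1187 in empty vector cells, without overlap (late log2 1.19 ± 0.15, adjusted p = 2.4e-07). The other risers were Cdkn1a and Irs2. The falls were Klf2, Txnip (-1.03 ± 0.28), Trib3 (-0.88 ± 0.2), Ccng2 (-0.86 ± 0.27), the catalase gene Cat (-0.84 ± 0.27) and Sod2 (-0.4 ± 0.13), with adjusted p of 0.044 or less.

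In the p53 and apoptosis list 5 of 14 rose late and 0 fell, with a median of 0.412. The cyclin-dependent kinase inhibitor gene Cdkn1a averaged 3460 ± 306 in Tcl1 shRNA cells and 1930 ± 529 in empty vector cells (SD, n = 3 days; adjusted p = 0.00023). Plk2 had 2256, 2101, 2868, 2377, 2122, 1852, 1565 and 1197 in Tcl1 shRNA cells and 2449, 2310, 1529, 921, 833, 649, 404 and 402 in empty vector cells. The courses were close on days 0 and 1, after which the empty vector samples lay lower. Within the empty vector course 5 genes of the list fell between the early and late days, and within the Tcl1 course 0 changed.

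**Figure D4:**
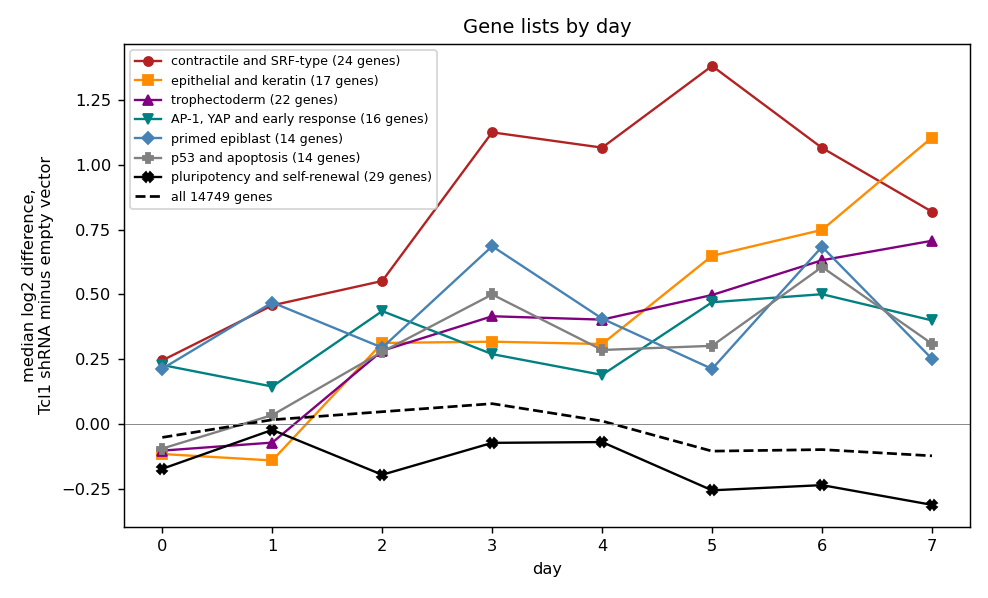
Median log2 difference of Tcl1 shRNA minus empty vector (y axis) on each day (x axis) for 7 gene lists and for all 14749 genes (dashed). The contractile list reached 1.125 on day 3 and 1.381 on day 5, the epithelial list 1.105 on day 7, and the pluripotency list stayed between -0.311 and -0.022.

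Of 16 AP-1, YAP and early response genes 5 rose late and 0 fell, with a median of 0.39. Ccn2 and Ccn1, matricellular protein genes that YAP and SRF are known to activate, were 2.98-fold and 2.73-fold higher (adjusted p = 2.5e-07 and 3.4e-06). Dusp6, Hbegf and Plaur had log2 differences of 1.11, 0.81 and 0.95. In the list of interstitial matrix and fibroblast markers 3 of 17 rose (Thbs1, Col5a2 and Col6a2) and 1 fell (Fn1), with log2 differences of 0.99, 0.92, 0.57 and -0.51 and a list median of 0.407. Second probe sets gave -0.08 for Col5a2 and 0.09 for Col6a2, and Col6a2 and Fn1 lost their calls in 16 and 12 of 28 alternatives. The part of fibroblast RNA in these values was not tested.

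Over all genes 4.68% were higher and 3.86% lower late, and counts of 1 or 2 members in a list of this size are not read as results about the list. Among lineage lists, 2 of 19 extraembryonic endoderm genes rose late and 0 fell, with a median of 0.047. Sparc, which encodes a basement membrane protein, had no overlap between courses, was 1.32 higher early (adjusted p = 0.0039) and 1.35 higher late (adjusted p = 2.8e-05), and Col4a1 was 0.87 higher late. Gata6 (0.28, adjusted p = 0.38) and Gata4 (0.08, adjusted p = 0.86) did not pass. Of 11 mesoderm and primitive streak genes 1 rose (Bmp4, 0.91), and of 12 neuroectoderm genes 1 fell (Tubb3, -1.12, adjusted p = 0.00058), with list medians of -0.153 and -0.041. Of 11 germ line genes Mael (1.01) and Tex19.1 (0.62) rose and Kit (-0.84) fell, with a median of 0.074, and Tex19.1 lost its call in 9 of 28 alternatives. Of 14 retinoic acid response genes 2 fell, Tgm2 (-1.37, adjusted p = 0.00077) and Crabp1 (-1.06, adjusted p = 4e-04), with a median of -0.207.

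In metabolic and stress lists, 3 of 17 amino acid stress genes fell late (Trib3, Shmt2 and Slc7a5, at -0.88, -0.81 and -0.54) and 0 rose, with a median of -0.292. Glycolysis and hypoxia (19 genes) and sterol and fatty acid synthesis (17 genes) had 0 calls in limma in either direction, with medians of -0.105 and -0.084. At an unadjusted p of 0.05, 2 genes of each list were called. Of 22 mitosis and replication genes 3 rose (Cdc20, Aurka and Cdk1, at 0.43, 0.37 and 0.29), with a median of -0.069. Cdk1 and Aurka lost their calls in 9 and 8 of 28 alternatives, and a dim second Aurka probe set gave -0.98. Of 12 interferon response genes 2 rose (Psmb8, 1.55, and Ifi35, 0.87), with a median of 0.125. Of 5 haematopoietic and macrophage genes 0 passed, with a median of -0.058 and 1 at an unadjusted p of 0.05.

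Of the early calls, 42 of 69 higher and 28 of 87 lower genes were called in the same direction late, which is 60.9% and 32.2% of the early calls and 6.09% and 4.92% of the late ones. Beside Dusp5, the largest early rise was Zfp1, a zinc finger gene, with 628, 497, 545, 408, 500, 400, 656 and 665 in Tcl1 shRNA cells and 78, 69, 92, 53, 150, 82, 194 and 170 in empty vector cells. The courses did not overlap, and Zfp1 was 4.6-fold higher early (adjusted p = 0.0011) and 2.95-fold higher late. The other early rises, 9430038I01Rik, Gm17762 and 4930505M18Rik, had log2 differences of 1.58 to 1.63 early and -0.26 to 0.44 late.

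The largest early fall was Tmem263, a transmembrane protein gene, with 135, 45, 100, 208, 166, 183, 191 and 192 in Tcl1 shRNA cells and 926, 424, 353, 516, 508, 547, 336 and 363 in empty vector cells. It was 5.81-fold lower early (adjusted p = 7.2e-06) and 2.33-fold lower late (adjusted p = 0.0024), while a dim second probe set gave a late value of 0.17. Ryk, which encodes a Wnt receptor, had 127, 127, 84, 501, 574, 840, 815 and 894 in Tcl1 shRNA cells and 897, 575, 466, 509, 329, 394, 786 and 390 in empty vector cells. It was 4.38-fold lower early and 1.64-fold higher late (adjusted p = 0.044), and its other probe sets gave late values of -0.61 and -0.11. Rwdd4a, Sult6b1 and Grifin were also lower early, by -1.89, -1.91 and -1.83 on the log2 scale. The other Rwdd4a probe sets gave late values of -0.85 and 0.11 and all-day values of -0.74 and 0.03.

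When the change from early to late days in the Tcl1 course was set against that of the empty vector course, 18 genes passed (0.122%), 13 higher (0.0881%) and 5 lower (0.0339%). The largest positive values were those of Rwdd4a (3.3), Ryk (2.84), Anxa1 (2.79), Rin3 (2.69) and Tpm1 (2.48), with adjusted p between 1.4e-05 and 0.049. Rwdd4a and Ryk started below the empty vector, whereas Anxa1 started level with it. Their other probe sets had lower mean late log2 differences, -0.85 and 0.11 against 1.14 for Rwdd4a, -0.61 and -0.11 against 0.58 for Ryk, and -0.15 on a very dim one for Anxa1. The negative changes beyond the empty vector were those of Lca5 (-1.72), Rnf123 (-1.6), Khdc3 (-1.47), Etfb (-1.3) and Cpne5 (-1.02). This count was 2 to 11 without the Tcl1 sample of day 0, 1, 2, 3 or 5 or the empty vector sample of day 0, 1, 2, 3, 4 or 6, and 26 without that of day 5.

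Direct comparisons on days 4 to 6 with other knockdown courses do not use the empty vector. From the Tbx3 course 661 genes (4.48%) differed, from the Esrrb course 679 (4.6%) and from the Mm343880 course, a transcript the labels name by this code, 851 (5.77%). Without the day 5 Tcl1 sample these were 231, 301 and 437, and without the day 6 Tcl1 sample the Tbx3 and Mm343880 counts were 412 and 535. Tcl1 itself averaged 796 ± 129 in the Tcl1 course, 1210 ± 342 in the Tbx3 course, 893 ± 165 in the Esrrb course, 1610 ± 412 in the Mm343880 course and 3350 ± 558 in the empty vector course (SD, n = 3 days). Its signal was 1.93-fold lower than in the Mm343880 course (log2 -0.95 ± 0.22, adjusted p = 0.0049). The differences from the Tbx3 course (-0.54 ± 0.22, adjusted p = 0.16) and the Esrrb course (-0.25 ± 0.22, adjusted p = 0.58) did not pass. Tcl1 averaged 1110 ± 327 in the Nanog, 730 ± 173 in the Oct4 and 437 ± 37.3 in the Sox2 knockdown course (SD, n = 3 days). In the retinoic acid course it averaged 251 ± 12.9, and the Tcl1 course was not tested against these courses.

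The other knockdown courses were not tested against the empty vector here. Acta1 averaged 4970 ± 1740 in the Tcl1 course, 2340 ± 1270 in the Tbx3 course, 6700 ± 2740 in the Esrrb course, 5980 ± 3440 in the Mm343880 course and 370 ± 103 in the empty vector course. It was 2.38-fold above the Tbx3 course (log2 1.25 ± 0.38, adjusted p = 0.044) and did not pass against the Esrrb (-0.35 ± 0.38) or Mm343880 (-0.08 ± 0.38) course. Anxa1 averaged 2160 ± 1100, 2140 ± 1510, 2720 ± 898, 3010 ± 2180 and 249 ± 70.5 in the same order, and passed in none of these direct tests (adjusted p of 0.64, 0.65 and 0.77). Cryab, with differences of 1.03 ± 0.35, -0.48 ± 0.35 and -0.32 ± 0.35 from the Tbx3, Esrrb and Mm343880 courses, did not pass either, and nor did Anxa3 (0.76 ± 0.26, -0.22 ± 0.26 and -0.07 ± 0.26). In the Nanog, Oct4 and Sox2 courses Acta1 averaged 1720 ± 905, 883 ± 64.6 and 9400 ± 1550, and Anxa1 3420 ± 1710, 913 ± 67.2 and 5140 ± 1290, without a test.

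Of the 24 contractile genes 5 exceeded the Tbx3 course and 0 were below it, 0 exceeded the Esrrb course and 2 were below it, and 0 differed from the Mm343880 course. Among them Acta2 was 2.22-fold above the Tbx3 course (adjusted p = 0.01). Krt18 averaged 7580 ± 3400 in the Tcl1 course and 16100 ± 8230 in the Esrrb course, 2.13-fold lower (log2 -1.09 ± 0.24, adjusted p = 0.004). In the trophectoderm list 8 of 22 genes were lower than in the Esrrb course and 0 higher. Inhbb averaged 404 ± 101 in the Tcl1 course, against 526 ± 110, 243 ± 75.2 and 457 ± 81.2 in the Tbx3, Esrrb and Mm343880 courses, and passed against none of them.

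**Figure D5:**
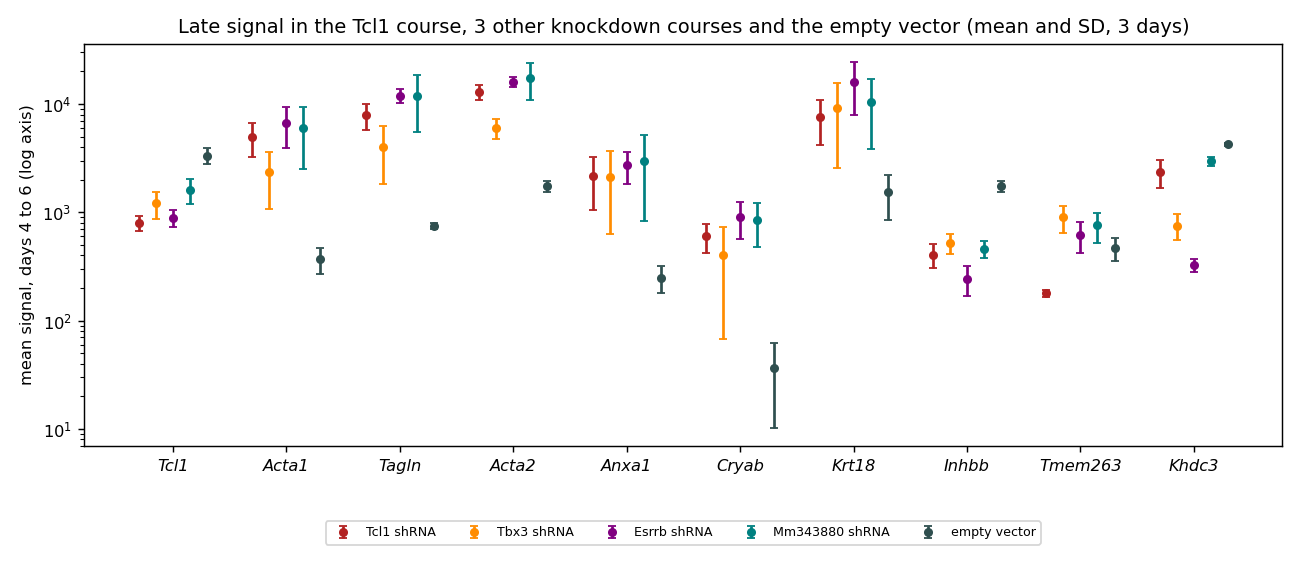
Mean signal on days 4 to 6 (log axis, points with SD over 3 days) of 10 genes (x axis) in the Tcl1 course, 3 other knockdown courses and the empty vector course. The empty vector stands apart for Tcl1, Acta1 and Inhbb, and the Tcl1 course for Tmem263, at 180 against 900, 615 and 760 in the other knockdowns and 464 in the empty vector.

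Some genes set the Tcl1 course apart from these knockdowns. Tmem263 was 4.35-fold lower than in the Tbx3 course, 3.09-fold lower than in the Esrrb course and 3.69-fold lower than in the Mm343880 course (adjusted p = 1.7e-06, 0.00016 and 1.8e-05). The kinase gene Dyrk2 averaged 55.9 ± 66.4 in the Tcl1 course, against 236 ± 75.1, 212 ± 41.4 and 185 ± 100 in the Tbx3, Esrrb and Mm343880 courses (adjusted p = 0.011, 0.024 and 0.037), but its level in the empty vector was 48 ± 23.4. Aard was higher than in each of the 3 courses, by 2.57-fold, 4.34-fold and 2.36-fold (adjusted p = 0.0063, 1.9e-05 and 0.012), and did not pass against the empty vector (0.49 ± 0.31, adjusted p = 0.37).

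In the pluripotency list the Tcl1 course exceeded the Tbx3 course in 4 genes and was below it in 1. It exceeded the Esrrb course in 10 and was below it in 1, and it exceeded the Mm343880 course in 2 and was below it in 0. Khdc3, a gene of oocytes and stem cells, averaged 2370 ± 682 in the Tcl1 course, against 756 ± 203 and 325 ± 42.7 in the Tbx3 and Esrrb courses, and was 3.06-fold and 6.5-fold higher (adjusted p = 3.9e-08 and 6.3e-15). Vgf, which encodes a secreted neuropeptide precursor, was 16.5-fold lower than in the Esrrb course, and Fgf8 and Crabp2 5.35-fold and 4.58-fold lower. Prdx3, a mitochondrial peroxiredoxin gene, was 4.07-fold higher than in the Tbx3 course (adjusted p = 2.1e-15), and Ankrd13a 2.97-fold higher than in the Mm343880 course (adjusted p = 5.5e-10).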

How the data were processed

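The deposited values were linear array intensities for each probe set, which the authors computed with MAS5, per the submitters' processing notes, in a version not given in the sources used here. On each array the 2% trimmed mean of 100 control probe sets shared by both designs was 2500, which is the scaling the values carry. Samples were grouped by course and day from the labels.

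Each gene was represented by its brightest probe set (mean percentile rank) among the 34945 that name 1 gene, where the signal exceeded the table median (283.3 for A, 89.2 for B) on at least 3 of 70 arrays. The 936 probe sets that name several genes were left out. Values were log2(signal + pseudocount), with the 20th percentile as pseudocount (63.1 for A, 21.8 for B). With limma 3.58.1 in R 4.3.3 (lmFit, eBayes with trend), all 70 RNA samples of 9 courses were fitted, A and B separately, with a natural cubic spline of day (3 degrees of freedom) per course. The 9 courses included the retinoic acid course without LIF, which shared in the estimate of spread behind each p-value. Contrasts averaged the curves over days 0 and 1, 2 and 3, or 4 to 6, with Benjamini-Hochberg adjustment over 14749 genes and a threshold of 0.05. The number of arrays limits the precision. Scripts were tested on simulated data.

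The genes and the 24 gene lists were chosen with earlier results of these data known. Named genes were the study's regulators and Acta1, Anxa1, Anxa3 and Cryab, the 12 largest rises and falls late, the 5 largest early and beyond the empty vector, the 3 largest in each direction of each direct comparison, and up to 4 passing and 2 other members per list. Other genes, such as Cnn2, Cdx2, Cat or Akt1, were named after their values were seen. Alternatives were other pseudocounts, no filter, quantile normalization, means of probe sets, other splines, fewer courses, no trend, a block for day and leaving out samples, and, chosen after seeing the data, array quality weights.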

Additional observations from a re-analysis of the deposited data

Results flagged for a closer look

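Of 64 groups of 8 samples (30 genes and the A and B array medians, in each course), 7 had a sample far from the other days of its course, and chance gives about 1 in 20. In the Tcl1 course these were Islr2 on day 0 (180), Tesc on day 7 (134) and Fam183b on day 0 (174). In the empty vector course they were Nanog on day 0 (8314), Cnn1 on day 3 (145), Cald1 on day 0 (1147) and Tesc on day 4 (70).

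Of 90 direct late differences between the Tcl1 course and other knockdown courses for these 30 genes, 8 passed (limma, adjusted over all genes). Acta1 and Acta2 were higher than in the Tbx3 course by 1.25 and 1.15 on the log2 scale, and Krt18 differed from the Esrrb course by -1.09. Tcl1 differed from the Mm343880 course by -0.95. Tbx3 was 2.91 above the Tbx3 course, whose hairpin targets it, and 1.61 above the Esrrb course. Esrrb was 0.9 and Dppa4 0.53 above the Esrrb course.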

How the results depend on the processing

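Of the named genes 81 were run under the 28 alternatives, and others, such as Ryk, Tmem263, Zfp1 and Cnn2, were not. No gene among the 81 that passed late changed sign, and Dppa4 and Tbx3, which did not pass, did. Which direction held more genes turned late on days 4 to 7 (979 higher, 1017 lower), early with a 2-df spline (56, 53), the block or without the day 0 empty vector sample, over all days with the mean of probe sets (1262, 1321), array quality weights (1601, 1838) or without the day 0 or day 4 Tcl1 or the day 1 empty vector sample, for day 2 alone with the table median as pseudocount (146, 167), and under quantile normalization for days 4 to 7 singly and for B arrays. Without splines the calls were 375 higher and 284 lower late, 122 and 41 on days 2 and 3, 6 and 11 on days 0 and 1, 1 beyond the empty vector, 71 within the Tcl1 course, and 203, 260 and 278 against the Tbx3, Esrrb and Mm343880 courses. With a 2-df spline they were 1052 higher late, 309 lower on days 2 and 3, 53 lower on days 0 and 1, and 1122 against Esrrb. With day as a replicate block, 178 were higher and 85 lower on days 2 and 3, 10 and 8 on days 0 and 1, 5 beyond the empty vector and 428 against Mm343880. Of the 886 late calls of this paired fit 754 were shared with the 1259. Same-day deviations correlated between -0.044 and 0.284, highest on day 0, with 0.111 on day 1 and 0.135 on day 7. Only day 3 was under 0. The labels name no shared batch, and whether samples of the same day shared one was not tested. Only the courses compared gave 55 lower early and 349 against Mm343880, no filter 8 beyond the empty vector, quantile normalization 360 higher on days 2 and 3, and days 4 to 7 1017 lower. Array quality weights, chosen after seeing the data, gave 940 higher and 381 lower on days 2 and 3, 40 beyond the empty vector and 1178 against Esrrb. The cause of these changes was not tested.

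Leaving out 1 sample gave 398 to 711 higher and 231 to 611 lower genes late, 291 to 568 and 89 to 209 on days 2 and 3, 1 to 71 and 0 to 107 on days 0 and 1, and 1045 to 1322 and 736 to 1315 over all days. It gave 2 to 26 calls beyond the empty vector, 74 to 315 within the Tcl1 course, and 231 to 672, 301 to 688 and 437 to 887 against Tbx3, Esrrb and Mm343880. Over the alternatives 15 to 17 of the contractile list rose, 3 to 5 of the annexin list, 2 to 9 of the epithelial list, 1 to 11 of the trophectoderm list and 3 to 7 of the p53 list, and 1 to 9 of the pluripotency list fell. The late log2 difference ran from -2.19 to -1.77 for Tcl1, from 3.06 to 3.75 for Acta1, from 2.24 to 3.2 for Anxa1, from 2.3 to 3.02 for Anxa3 and from 1.51 to 4.28 for Cryab. Among the 81 named genes run, 14 lost their calls in 5 or more of 28 alternatives, Col6a2 in 16, Hsph1 in 15, Dnmt3a in 14, Fn1 in 12, Fgf4 in 11, Zfp78 in 10, Cdk1 and Tex19.1 in 9, Aurka in 8, Foxo1 in 7, Pou5f1 in 6, and Bmp4, Slc7a5 and Stat3 in 5.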
